A study of Mus musculus with 6 samples.

Results

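Serum response factor (SRF) and the cofactors that it recruits to DNA were followed in mouse embryonic stem cells (ESC) with 1 intact and 1 disrupted allele of Srrm2, whose large serine- and arginine-rich product organises nuclear speckles and takes part in splicing. The 6 genes were Srf itself, the myocardin-related transcription factor genes Mrtfa and Mrtfb, and the ternary complex factor genes Elk1, Elk3 and Elk4. They were taken by name from the 42450 genes of the deposited total RNA table, and all 6 were present and passed the filter on low counts, as did 18905 genes in all. Total RNA was sequenced from 3 WT libraries (E14tg2a.4, the parental male line) and 3 Srrm2+/- libraries (gene-trap line CG0630, derived from E14tg2a.4 and heterozygous for a truncated Srrm2). Both lines were maintained in medium with serum and LIF on gelatin and then kept in serum-free medium with LIF before collection. The time without serum is not given here. Each genotype was represented by 1 line only, and the study's methods state that the replicates came from separately frozen batches and that WT cells were at later passages than Srrm2+/- cells. Genotype, clone and passage therefore cannot be told apart in any difference given here.

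SRF is a MADS-box transcription factor that binds as a dimer to the CArG box, a short element with A and T bases between CC and GG. The MRTFs are coactivators that are held in the cytoplasm by monomeric actin and enter the nucleus when RhoA signalling drives actin into filaments, where they switch on cytoskeletal genes together with SRF. The ELK proteins are ETS-domain factors that bind beside SRF at immediate early genes and are activated by ERK and other MAP kinases. MRTFs and ELKs compete for the same surface of SRF. The activity of all 6 proteins is controlled largely by localisation and phosphorylation, which RNA counts do not measure.

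The promoter window of Srf (RefSeq, build GRCm38.p6, 250 bases before to 50 after the annotated start) was examined first, because Srf is itself known as an SRF target and because Srf was one of the members that changed. The window lies at chr17:46556113-46556412 on the minus strand and held 2 CArG boxes, at positions -82 to -73 and -62 to -53 from the start, and 1 copy of the ETS core CCGGAAG, at -122 to -116. The capitals mark these 3 matches.
Srf: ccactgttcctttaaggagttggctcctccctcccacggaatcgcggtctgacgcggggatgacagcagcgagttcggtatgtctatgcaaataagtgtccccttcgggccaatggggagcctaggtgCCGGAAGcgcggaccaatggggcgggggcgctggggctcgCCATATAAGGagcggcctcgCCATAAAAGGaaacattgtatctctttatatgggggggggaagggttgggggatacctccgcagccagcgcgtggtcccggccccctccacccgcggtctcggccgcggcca
CArG boxes and the ETS core were searched on both strands, and no match of one overlapped the other in these windows. The ETS core was searched only as the exact letters given above, so shorter or variant ETS sites were not counted. The 6 genes had 11 such windows between them. The Srf window was the only 1 of the 11 with a CArG box, against 1.63% of all 32851 windows. An ETS core stood in the Srf window and in 1 of the 3 windows of Elk4 (chr1:132007552-132007558, plus strand), against 8.86% of all windows. It is shown with its flanks because it was the only other match among the 6 genes.
Elk4: ggcccctcccCCGGAAGtgacgctcgc
The single window of Elk3, the other member that changed, held neither a CArG box nor this exact ETS core (chr10:93311110-93311409, minus strand). A match is a stretch of letters and does not show that a factor was bound there.

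Srrm2 was examined as a check of the labels. Its level was 95.7 ± 3.94 CPM (counts scaled to a common library size, with TMM factors, SD, n = 3) in WT and 59.3 ± 3.02 (SD, n = 3) in Srrm2+/- cells, which is a difference of -0.69 on the log2 scale (SE 0.05, edgeR adjusted p = 2.38e-05). Library totals lay between 54151433 and 69933421 estimated counts. Among the 18905 genes tested, 25.3% were called at an edgeR adjusted p under 0.05, with 13.6% higher and 11.7% lower in Srrm2+/- cells.

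Of the 6 genes, Srf and Elk3 rose in Srrm2+/- cells and the other 4 were not called. The 2 of 6 called higher stand beside 13.6% of all genes tested, and with so few members that difference was not tested. None of the 6 was called lower with edgeR, DESeq2 or limma voom, and none of those with a negative fold change had an unadjusted edgeR p under 0.05. The CPM of the 3 WT and 3 Srrm2+/- libraries did not overlap for 4 of the 6 genes, 2 higher and 2 lower, beside 41.4% of all genes tested (21.4% higher and 20.0% lower). On the log2 scale the median difference of the 6 genes was 0.02, and that of all genes tested was -0.0025.

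Srf (ENSMUSG00000015605, chr17:46548329-46556175, minus strand) doubled. It gave 21.5, 22.0 and 20.3 CPM in the 3 WT libraries and 42.8, 39.5 and 44.1 CPM in the 3 Srrm2+/- libraries. The lowest Srrm2+/- library lay well above the highest WT library, and the spread within each group was small beside the gap. The means were 21.3 ± 0.841 CPM (SD, n = 3) and 42.1 ± 2.40 CPM (SD, n = 3), a 1.98-fold difference (log2 fold change 0.99, SE 0.06, 95% interval 0.85 to 1.12, edgeR adjusted p = 7.09e-06). By p-value Srf ranked 127 of the 18905 genes tested, and by the size of its fold change 1550. The values rested on 1089 to 1269 estimated counts in WT and 2723 to 2963 in Srrm2+/- libraries. None of the 2884 words of 31 bases in the annotated Srf transcripts occurred in a transcript of another gene, so the count was not shared with a similar sequence at that length. In bulk RNA, more RNA per cell and more cells that express a gene cannot be told apart, here or in the results that follow.

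The MRTF genes did not pass the test in either direction. Mrtfa (ENSMUSG00000042292, chr15:81012281-81190757, minus strand), the founding member of the MRTF pair, gave 2.43, 1.90 and 2.02 CPM in WT and 1.81, 1.73 and 1.77 CPM in Srrm2+/- libraries. All 3 Srrm2+/- values lay below the lowest WT value, but WT replicate 1 stood above the other WT libraries and the gap between the groups was narrow. The log2 fold change was -0.26 (SE 0.15, 95% interval -0.61 to 0.09, edgeR adjusted p = 0.262). With 108 to 135 estimated counts per library and the largest SE, Mrtfa was the least precisely measured member. Mrtfb (ENSMUSG00000009569, chr16:13256481-13417529, plus strand), its close relative, gave 9.44, 9.32 and 9.33 CPM in WT and 10.7, 10.03 and 9.11 CPM in Srrm2+/- libraries. These groups overlapped, because Srrm2+/- replicate 3 lay below every WT library. The log2 fold change was 0.09 (SE 0.08, 95% interval -0.10 to 0.27, edgeR adjusted p = 0.494), so that a doubling such as that of Srf lay outside the interval of either MRTF gene. Mrtfb shares 162 exon bases with Gm15738 on the opposite strand, and 3.04% of its 31-base words occurred in transcripts of other genes. The part of these genes in the Mrtfb count was not tested.

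Among the ELK genes only Elk3 was called. Elk3 (ENSMUSG00000008398, chr10:93247414-93311135, minus strand), also named Net, encodes a ternary complex factor that represses SRF targets until it is phosphorylated. It gave 2.29, 2.18 and 2.09 CPM in WT and 3.83, 4.57 and 3.73 CPM in Srrm2+/- libraries. Every Srrm2+/- library exceeded every WT library, with Srrm2+/- replicate 2 the highest. The log2 fold change was 0.89 (SE 0.13, 95% interval 0.58 to 1.19, edgeR adjusted p = 0.00153), a 1.85-fold difference. The 3′ side of Elk3 overlaps the exons of Cdk17 on the opposite strand by 316 bases, and 6.34% of the 31-base words of Elk3 transcripts also occurred there. Cdk17 itself was higher in Srrm2+/- cells (log2 fold change 0.21, SE 0.05, edgeR adjusted p = 0.0188). The call of Cdk17 was lost without WT replicate 2, WT replicate 3, Srrm2+/- replicate 1 or Srrm2+/- replicate 3 (edgeR adjusted p up to 0.0655), and its part in the Elk3 count was not tested.

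Elk1 and Elk4 were not called. Elk1 (ENSMUSG00000009406, chrX:20933395-20950608, minus strand), an activator of immediate early genes once phosphorylated by ERK, gave 16.5, 16.1 and 16.0 CPM in WT and 15.6, 14.7 and 14.2 CPM in Srrm2+/- libraries. The groups did not overlap, but the difference was slight (log2 fold change -0.12, SE 0.06, 95% interval -0.26 to 0.0077, edgeR adjusted p = 0.161). Of the 31-base words of Elk1 transcripts, 1.61% also occurred in transcripts of 956 other genes. Elk1 shares 76 exon bases with Uxt on the same strand, which was lower in Srrm2+/- cells (log2 fold change -0.18, edgeR adjusted p = 0.0344). That call was lost with DESeq2, with a looser filter, with a replicate block and with any library but Srrm2+/- replicate 1 left out (adjusted p up to 0.113), and the part of Uxt in the Elk1 count was not tested. Elk4 (ENSMUSG00000026436, chr1:132007607-132032612, plus strand), also named Sap1, gave 6.65, 7.61 and 7.41 CPM in WT and 6.60, 7.16 and 7.21 CPM in Srrm2+/- libraries. The groups overlapped almost entirely (log2 fold change -0.05, SE 0.09, 95% interval -0.26 to 0.16, edgeR adjusted p = 0.763). Elk4 shares 84 exon bases with Mfsd4a on the opposite strand and 104 with Gm29103 on the same strand. Of its 31-base words, 2.06% occurred in transcripts of other genes, and the part of these genes in the Elk4 count was not tested.

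**Figure D1:**
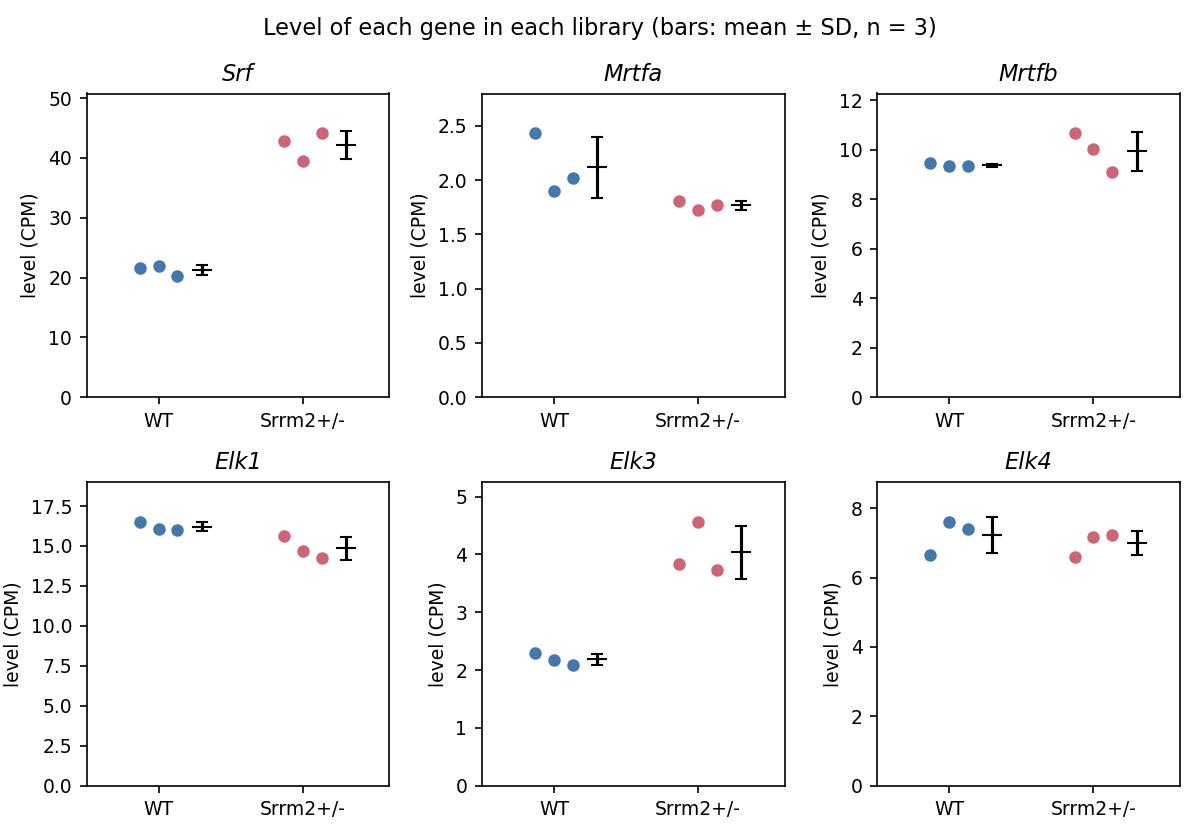
CPM of the 6 genes in each library, on TMM-scaled library sizes. Each panel is 1 gene, the vertical axis starts at 0, points are the 3 WT and 3 Srrm2+/- libraries, and the marks with bars are the mean ± SD. Srf and Elk3 separate widely, Mrtfa and Elk1 lie slightly lower in Srrm2+/- cells without passing the test, and the groups of Mrtfb and Elk4 overlap.

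**Figure D2:**
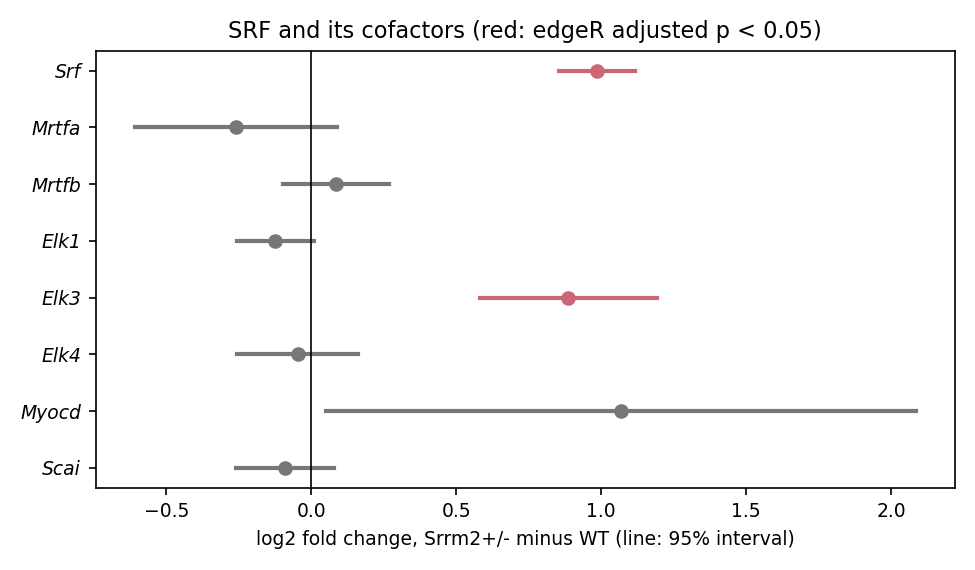
Log2 fold changes (horizontal axis) of the 6 genes and of the further SRF coactivator Myocd and the MRTF repressor Scai, Srrm2+/- minus WT, from edgeR. Points are estimates, lines are 95% intervals, the vertical line is 0 and red marks an adjusted p under 0.05. Among the 6 genes the intervals of Srf (0.85 to 1.12) and Elk3 (0.58 to 1.19) lie clear of 0, and Myocd, with few counts, has the widest interval.

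Levels were set between genes after division by the length of the annotated exons, scaled so that all genes of a library sum to the same total, which gives transcript-length-scaled units (TPM). On this scale Srf was the highest member in both genotypes, at 9.30 ± 0.603 TPM (SD, n = 3) in WT and 18.9 ± 2.12 (SD, n = 3) in Srrm2+/- cells. Elk1 came next, at 3.81 ± 0.298 and 3.57 ± 0.186. Elk4 and Mrtfb formed a middle pair whose libraries overlapped in both genotypes, with 1.42 ± 0.0420 and 1.32 ± 0.0924 in WT and 1.41 ± 0.123 and 1.43 ± 0.0745 in Srrm2+/- cells. Elk3 followed, at 0.609 ± 0.0585 in WT and 1.14 ± 0.0820 in Srrm2+/- cells. Mrtfa was the lowest member, at 0.441 ± 0.0853 and 0.373 ± 0.0257. All other neighbours in this order were separated without overlap of their libraries. When the longest transcript was used in place of all exons, Elk4 lay above Mrtfb in both genotypes, and WT Elk3 and Mrtfa came close, at 0.593 and 0.553 TPM.

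Cofactor RNA was also expressed relative to Srf RNA, as the ratio of length-scaled levels in each library, and it was lower in Srrm2+/- cells. The length-scaled sum of Mrtfa and Mrtfb was 0.189 ± 0.00977 of the Srf level in WT and 0.0960 ± 0.00929 in Srrm2+/- cells (SD, n = 3 each). The sum of the 3 ELK genes was 0.629 ± 0.0214 of the Srf level in WT and 0.326 ± 0.0274 in Srrm2+/- cells. In both ratios all 3 Srrm2+/- libraries lay below all 3 WT libraries. These ratios restate the change of Srf and were not tested separately. They are ratios of RNA, and the amounts of the proteins were not measured here.

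Within the cofactor families the make-up was compared as shares of the length-scaled level, which do not depend on the scaling between libraries. Mrtfa made up 27.5%, 23.1% and 24.1% of the MRTF pair in WT and 19.9%, 20.2% and 22.2% in Srrm2+/- libraries. The mean difference was -4.12 percentage points, with no overlap between the groups (exact permutation test, two-sided, p = 0.1, adjusted p = 0.133 over 4 shares). In the ELK trio the share of Elk3 was 10.9%, 10.3% and 10.01% in WT and 17.6%, 20.7% and 17.8% in Srrm2+/- libraries, a difference of 8.31 points (exact permutation p = 0.1, adjusted p = 0.133). Elk1 held 65.2% ± 1.25 in WT and 58.2% ± 2.33 in Srrm2+/- cells (SD, n = 3), a difference of -6.94 points without overlap (exact permutation p = 0.1, adjusted p = 0.133). The share of Elk4 was 24.4% ± 1.66 and 23.0% ± 1.47 (SD, n = 3), with overlapping groups (exact permutation p = 0.3, adjusted p = 0.3). A comparison of 3 with 3 libraries cannot give an exact p below 0.1, so none of these 4 shares could pass 0.05. Elk1 remained the largest part of the trio in every library of both genotypes.

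**Figure D3:**
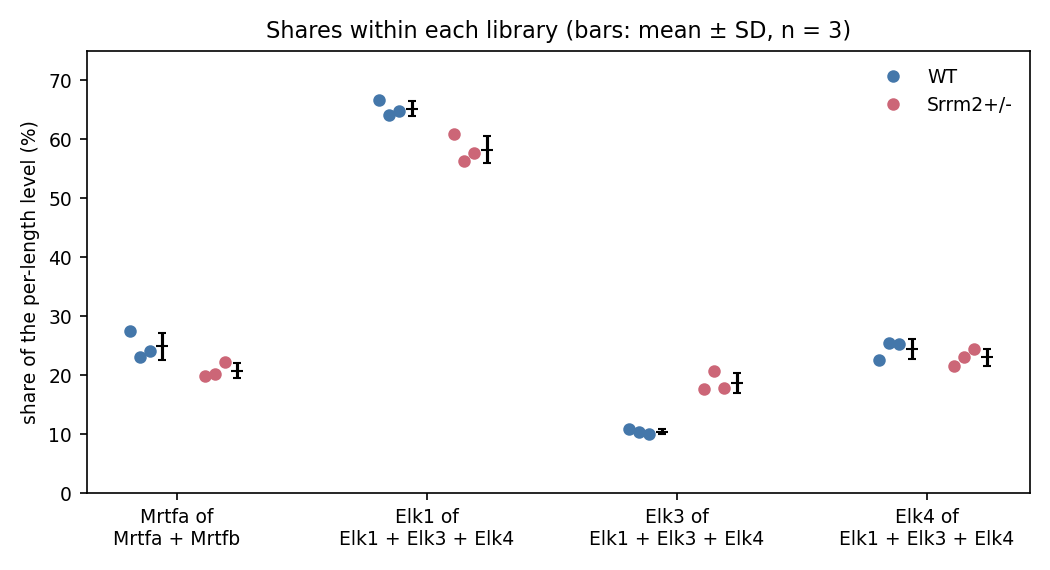
Shares of the MRTF pair and of the ELK trio, in percent of the length-scaled level, in each library. The vertical axis starts at 0, points are the 3 WT and 3 Srrm2+/- libraries and the marks with bars are the mean ± SD. The share of Elk3 lies at 10.01% to 10.9% in WT and at 17.6% to 20.7% in Srrm2+/- libraries, and that of Mrtfa is lower in all 3 Srrm2+/- libraries.

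Other proteins can act with SRF. Myocd, the cardiac and smooth muscle coactivator from which the MRTFs take their name, was near the limit of detection, with 9, 4 and 9 estimated counts in WT and 15, 25 and 16 in Srrm2+/- libraries (log2 fold change 1.07, SE 0.45, edgeR adjusted p = 0.120). Mamstr, a further coactivator of this family, gave at most 7 estimated counts in any library and did not pass the filter. Scai, a repressor that binds MRTFs, was clearly detected and not called (27.1 ± 0.997 CPM in WT and 25.4 ± 2.52 in Srrm2+/- cells, SD, n = 3, log2 fold change -0.09, edgeR adjusted p = 0.426). Of the 9 listed coactivators and partners, 7 were tested and 2 (28.6%) were called, both higher, beside 25.3% of all genes tested called in either direction, and the median log2 fold change was 0.69 (0.36 without Srrm2+/- replicate 2). Both encode LIM-domain proteins. Csrp1 gave 30.8, 32.6 and 33.4 CPM in WT and 94.99, 86.35 and 80.0 CPM in Srrm2+/- libraries (log2 fold change 1.43, SE 0.07, edgeR adjusted p = 1.95e-06), and Fhl2 was almost silent in WT, at 0.158 ± 0.0766 CPM against 3.08 ± 0.417 (SD, n = 3, log2 fold change 4.28, SE 0.31, edgeR adjusted p = 2.12e-05). Fhl2 is itself known as an SRF target.

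The RhoA pathway lies upstream of the MRTFs. All 29 of its listed genes were tested, 10 were called higher and 1 lower, beside 13.6% and 11.7% of all genes tested, and the list median was 0.10 on the log2 scale. Rhoa itself was not called (249 ± 11.3 CPM in WT and 253 ± 8.14 in Srrm2+/- cells, SD, n = 3). Rnd3, an atypical small GTPase that opposes RhoA and ROCK, rose from 20.9 ± 1.79 to 44.2 ± 1.23 CPM (SD, n = 3, log2 fold change 1.08, SE 0.07, edgeR adjusted p = 8.50e-06), close in size to Srf. Rhob, a growth-factor-inducible relative of RhoA, rose by 0.74 on the log2 scale (SE 0.10, edgeR adjusted p = 0.00103). The single fall was the largest change in the list. Arhgef3, an exchange factor that activates RhoA, gave 3.73, 9.50 and 5.84 CPM in WT and 0.332, 0.333 and 0.535 CPM in Srrm2+/- libraries (log2 fold change -3.99, SE 0.37, edgeR adjusted p = 0.000102). Its WT libraries varied, but the lowest of them was far above the highest Srrm2+/- library.

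A further list held proteins that move MRTFs and actin between nucleus and cytoplasm or set nuclear actin. Of its 12 listed genes, all tested, 3 rose and 1 fell. These 4 are 33.3% of the list, beside 25.3% of all genes tested. The list median was 0.22 on the log2 scale (0.13 without WT replicate 1, and 0.10 when genes had to reach 1 CPM throughout a genotype). Lmna and Emd, which encode lamin A/C and the inner nuclear membrane protein emerin, both known to promote nuclear actin assembly, rose by log2 fold changes of 0.43 (SE 0.07, edgeR adjusted p = 0.00158) and 0.28 (SE 0.04, edgeR adjusted p = 0.00156). Mical2, an oxidoreductase that lowers nuclear monomeric actin, was the other gene called higher (log2 fold change 0.69, SE 0.19, edgeR adjusted p = 0.0242), a call that was lost without WT replicate 1, Srrm2+/- replicate 2 or Srrm2+/- replicate 3 (edgeR adjusted p up to 0.0804). Ddx19b, a DEAD-box helicase, fell by 0.16 on the log2 scale (SE 0.04, edgeR adjusted p = 0.0139), a call that was lost when WT replicate 2, WT replicate 3 or Srrm2+/- replicate 3 was left out (edgeR adjusted p up to 0.0614). Only 2 of the 4 calls were left without Srrm2+/- replicate 3. Xpo1 and Xpo6, the export receptors for MRTFs and actin, and Ipo9, the import receptor for actin, were not called, with log2 fold changes between -0.02 and 0.02.

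ERK and other MAP kinases lie upstream of the ELK proteins. Of 36 listed genes, all tested, 13 were called higher and 3 lower, beside 13.6% and 11.7% of all genes tested, with a median log2 fold change of 0.13. The 3 largest changes among called genes above a mean log2 CPM of 1 were those of dual-specificity phosphatases that inactivate ERK and are themselves ERK-induced. Dusp5 gave 1.66, 2.15 and 2.41 CPM in WT and 13.4, 12.9 and 11.9 CPM in Srrm2+/- libraries (log2 fold change 2.62, SE 0.13, edgeR adjusted p = 3.49e-06). Dusp4 rose by 1.49 (SE 0.08, edgeR adjusted p = 3.56e-06) and Dusp6 by 1.16 on the log2 scale (SE 0.04, edgeR adjusted p = 4.55e-07). The inhibitors Spry1, Spry2 and Spry4 rose as well, by log2 fold changes of 0.53 to 0.71. Among the kinases, Mapk13 of the p38 group rose by 0.66 on the log2 scale and Mapk14 by 0.15 (edgeR adjusted p = 0.0465). Mapk8 and Araf were lower, with log2 fold changes of -0.18 (edgeR adjusted p = 0.0141) and -0.16 (edgeR adjusted p = 0.0233). Nras was the other gene of the list called lower (log2 fold change -0.16, edgeR adjusted p = 0.0286). Mapk3, Map2k1, Map2k2 and Braf were not called. The call of Mapk14 was lost with DESeq2, limma voom, a looser filter or a replicate block. It was also lost with any library but Srrm2+/- replicate 2 left out (adjusted p up to 0.135). That of Araf was lost with a replicate block and with any library but WT replicate 2 left out (edgeR adjusted p up to 0.0878). Mapk8 lost its call without Srrm2+/- replicate 1 (edgeR adjusted p = 0.0515). The call of Nras was not followed over the alternatives.

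Targets of SRF were described by cofactor. Of 26 listed targets that depend mainly on MRTFs, 24 were tested and 23 were called higher in Srrm2+/- cells, beside 13.6% of all genes tested, and their median log2 fold change was 1.46. These genes were listed with earlier results of these libraries known, so the count is a description and no test of SRF activity. The 3 largest changes above a mean log2 CPM of 1 belonged to muscle-type actins and an actin-binding protein. Acta1, skeletal muscle actin, gave 0.306, 0.138 and 0.336 CPM in WT and 5.92, 4.99 and 4.26 CPM in Srrm2+/- libraries (log2 fold change 4.28, SE 0.27, edgeR adjusted p = 1.14e-05). Tagln, transgelin, rose from 3.58 ± 1.13 to 68.4 ± 5.52 CPM (SD, n = 3, log2 fold change 4.26, SE 0.18, edgeR adjusted p = 1.32e-06). Acta2, smooth muscle actin, rose from 2.48 ± 0.825 to 43.9 ± 6.36 CPM (SD, n = 3, log2 fold change 4.15, SE 0.19, edgeR adjusted p = 2.12e-06). The cytoplasmic actins were far more abundant and rose less. Actg1 went from 305 ± 11.05 to 755 ± 26.5 CPM (SD, n = 3, log2 fold change 1.31, SE 0.05) and Actb from 2013 ± 55.8 to 2761 ± 161 CPM (SD, n = 3, log2 fold change 0.46, SE 0.05), with edgeR adjusted p of 4.21e-07 and 0.000243. The tested exception was Itga5, an integrin subunit (log2 fold change -0.09, edgeR adjusted p = 0.577).

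Promoter windows were at hand for 21 of the 26 MRTF-dependent targets, and 7 of these genes (33.3%) held a CArG box, beside 1.81% of 27025 genes. The list was made of known SRF targets, so a raised share of CArG boxes describes the choice of genes and tests nothing. For the 6 genes with a box that were also tested for expression, the box is printed with 10 bases on either side. Sequences run 5′ to 3′ in the direction of the gene, with the box in capitals, so that they can be read against the pair in Srf.
Acta1 (chr8:123894839-123894848, minus strand): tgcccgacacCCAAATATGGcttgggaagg
Actg1 (chr11:120348576-120348585, minus strand): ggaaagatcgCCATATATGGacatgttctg
Cnn2 (chr10:79988544-79988553, plus strand): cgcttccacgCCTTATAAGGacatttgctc
Vcl (chr14:20929171-20929180, plus strand): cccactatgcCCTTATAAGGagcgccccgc
Myl9 (chr2:156775303-156775312, plus strand): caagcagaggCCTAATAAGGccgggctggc
Fhl1 (chrX:56779581-56779590, plus strand): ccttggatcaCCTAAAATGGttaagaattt
All 6 genes were called higher, with log2 fold changes of 4.28 for Acta1, 3.58 for Myl9, 2.05 for Cnn2, 1.31 for Actg1, 0.90 for Vcl and 0.34 for Fhl1. Of the 24 tested genes of this list, 23 were called higher, so these calls do not set the genes with a box apart. The box of Cnn2 and that of Vcl have the same letters, while the fold changes of these genes differ. The box of Fhl1 lies inside the annotated gene (chrX:56731787-56793346), beside a RefSeq start downstream of the first base of the gene. Which start was used in these cells was not examined. Windows cover only a short stretch, and a box farther off would not be seen.

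Of 11 listed targets that depend mainly on ELK factors, 8 were tested and 7 were called higher, beside 13.6% of all genes tested, with a median log2 fold change of 1.24. These genes too were listed with earlier results known. Egr1, a zinc finger factor and a classic immediate early gene, gave 0.685, 0.675 and 1.12 CPM in WT and 4.06, 4.29 and 4.21 CPM in Srrm2+/- libraries (log2 fold change 2.34, SE 0.20, edgeR adjusted p = 6.47e-05). Ier3 rose by 1.32 on the log2 scale (SE 0.16, edgeR adjusted p = 0.000402), from 1.81 ± 0.328 to 4.50 ± 0.349 CPM (SD, n = 3). Nr4a1, an orphan nuclear receptor, rose by 1.25 (SE 0.13, edgeR adjusted p = 0.000183), from 4.31 ± 0.606 to 10.3 ± 1.17 CPM (SD, n = 3). Mcl1, an abundant survival gene, rose by only 0.18 (SE 0.04, edgeR adjusted p = 0.00739). Egr2 was tested and not called (log2 fold change 0.61, SE 0.30, edgeR adjusted p = 0.183). Windows were at hand for 8 of the 11 listed genes, and Egr2 was the only one of these 8 with a CArG box. The others were not searched, and whether Egr1 had a window is not given here.

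**Figure D4:**
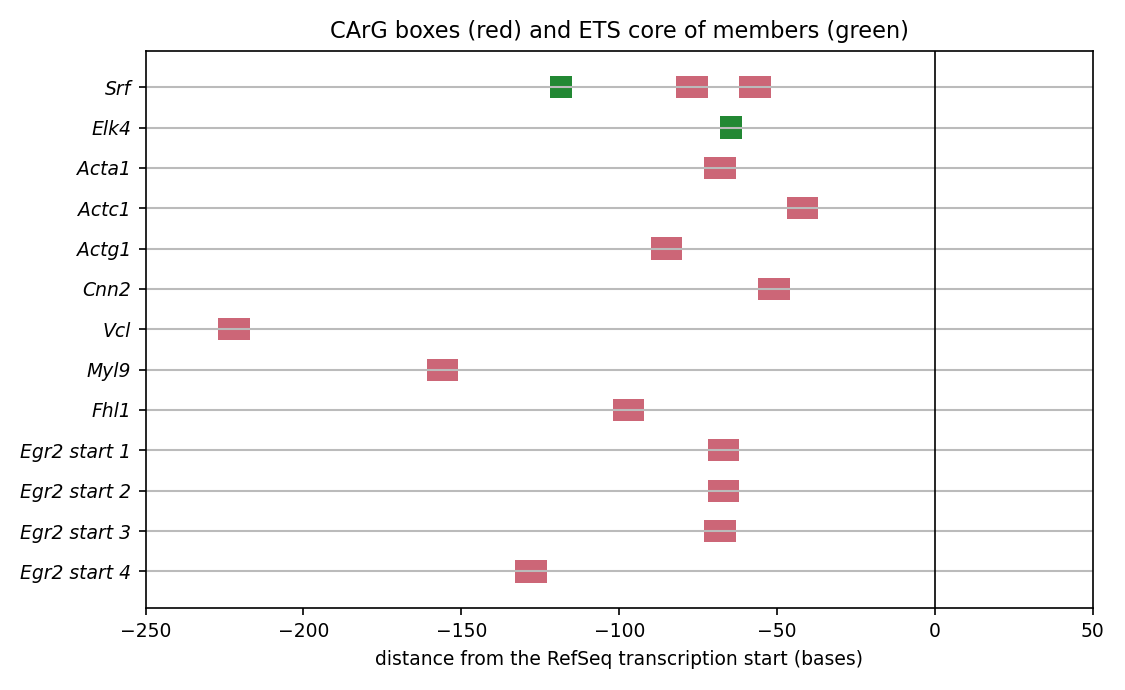
CArG boxes (red) and ETS cores (green, drawn for the 6 members only) in RefSeq promoter windows. The horizontal axis is the distance from the annotated start in bases, each line is 1 window with a match, and the lines of Srf and Elk4 are followed by those of the MRTF-dependent targets and of the 4 starts of Egr2. Several of the Egr2 lines mark the same box, chr10:67537797-67537806, seen from different starts. Srf is the gene with 2 CArG boxes in 1 window, at -82 to -73 and -62 to -53, and the boxes of the targets lie between -227 and -38.

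Relatives of the members were counted to see how far the changes ran in their protein families. Among the other MADS-box genes, 3 of 4 were tested and 2 were called higher, beside 13.6% of all genes tested. Mef2d rose by 0.61 on the log2 scale (SE 0.12, edgeR adjusted p = 0.00648) and Mef2a by 0.24 (SE 0.07, edgeR adjusted p = 0.0469). The call of Mef2a was lost with DESeq2, with limma voom and without WT replicate 1, WT replicate 2, Srrm2+/- replicate 2 or Srrm2+/- replicate 3 (adjusted p up to 0.144). Of the 23 other ETS family genes, 20 were tested, 6 rose and 2 fell, beside 13.6% and 11.7% of all genes tested, with a median of -0.02 on the log2 scale. Ets1, the founding ETS factor, gave 0.793, 1.18 and 1.20 CPM in WT and 8.83, 9.48 and 8.93 CPM in Srrm2+/- libraries (log2 fold change 3.10, SE 0.16, edgeR adjusted p = 3.15e-06). Ets2 rose by 0.88 (SE 0.12, edgeR adjusted p = 0.000936), a value near that of Elk3, and Etv4 by 0.45 (SE 0.06, edgeR adjusted p = 0.000504). Spic and Gabpa were the genes called lower, with log2 fold changes of -1.63 and -0.19.

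**Figure D5:**
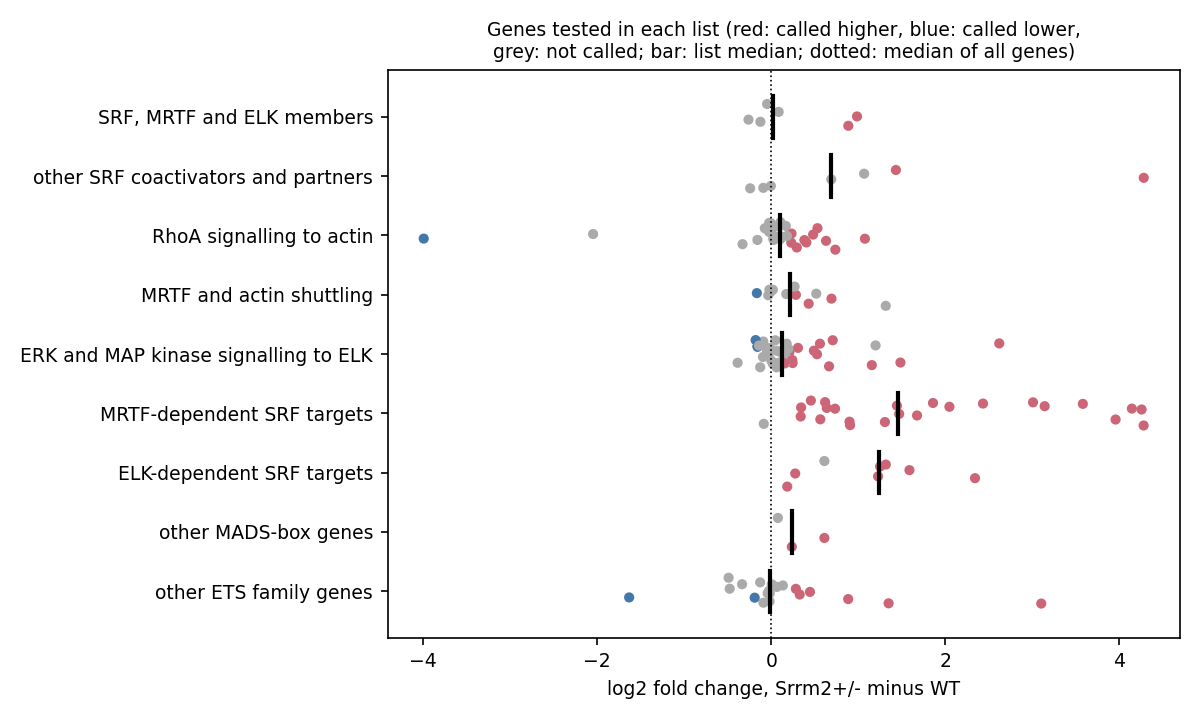
Log2 fold changes, Srrm2+/- against WT, of the tested genes of each list. Each point is 1 gene (red called higher, blue called lower, grey not called), rows are lists, bars are list medians and the dotted line is the median of all genes tested. The MRTF-dependent targets lie to the right of 0 except Itga5, while the medians of the RhoA, shuttling, ERK and ETS lists lie between -0.02 and 0.22.

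The profile of Srf over the 6 libraries was set against those of 12063 genes (mean log2 CPM not under 1), after centring each gene on its own WT mean. The nearest was Asb13, a suppressor-of-cytokine-signalling box gene, with a root-mean-square difference of 0.0290 on the log2 CPM scale. Cavin1, which encodes a coat protein of caveolae, followed at 0.0525. Lmo4, a LIM-only transcriptional regulator, stood at 0.0561, Mpdz, a multi-PDZ scaffold of cell junctions, at 0.0586, and Slco5a1, an organic anion transporter family gene, at 0.0595. Their log2 fold changes lay between 0.93 and 1.05. A likeness over 6 libraries in 2 groups rests almost wholly on the size of the difference between genotypes.

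Markers of ESC and of other cell types were also counted, and the lists did not all move the same way. Their counts stand beside the 13.6% of all genes tested that were called higher and the 11.7% called lower. The embryonic stem cell markers (8 genes, all above 1 CPM) summed to 5058 to 5241 CPM in WT and 4426 to 4537 CPM in Srrm2+/- libraries, with 1 of 8 called higher and 5 lower. The 10 fibroblast markers summed to 3.66 to 4.00 CPM in WT and 7.95 to 11.9 CPM in Srrm2+/- libraries, 6 of the 8 tested were called higher, and 5 of the 10 stayed under 1 CPM in every library. Col1a2 went from 0.197 ± 0.0792 to 2.96 ± 0.769 CPM (SD, n = 3), while Dcn was at 0 in WT and at 0.0451 ± 0.0147 CPM in Srrm2+/- cells (SD, n = 3). The 10 muscle markers summed to 11.7 to 12.2 CPM in WT and 14.4 to 16.8 CPM in Srrm2+/- libraries, most of it Des. Both tested muscle markers were called higher, with log2 fold changes of 0.34 and 1.66. In every library 8 of the 10 stayed under 1 CPM, and the defining muscle genes Myod1 and Ckm were at 0 in all 6 libraries. The 6 endothelial markers summed to 93.9 to 97.3 CPM in WT and 69.4 to 74.6 CPM in Srrm2+/- libraries, most of it Pecam1, which ESC also express. Of the 4 tested endothelial markers, 1 was called higher and 2 lower, with log2 fold changes from -0.59 to 3.34. Cdh5 was at 0 in WT, but none of the 6 endothelial markers was at 0 in all libraries. In every library 3 of these 6 stayed under 1 CPM. The part of any difference in cell make-up in the levels of Srf, Elk3 and the target genes was not tested.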

How the data were processed

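Total RNA libraries (stranded kit, paired-end reads) of 3 WT and 3 Srrm2+/- cultures were analysed, grouped by sample title. Kallisto 0.46.1 with GENCODE release M24 (GRCm38) was used by the authors for pseudo-alignment, and the deposited values are unnormalized estimated counts summed by gene. The strand setting was not given in the sources used here. Reads shared by similar or overlapping transcripts are divided among them by estimation.

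Estimated counts were rounded to whole numbers. Of 42450 genes, 42156 matched GENCODE release M21, which gave symbols, positions and exon lengths, and 18905 passed filterByExpr (minimum count 10, minimum total 15). edgeR 4.0.16 in R 4.3.3 (TMM, glmQLFit and glmQLFTest, two-sided, genotype as the only term) was run on all of them, with Benjamini-Hochberg adjustment and calls at an adjusted p under 0.05. The SE was the log2 fold change divided by the square root of F. Exact permutation tests were used for the shares. CArG boxes and ETS cores were searched in RefSeq promoter windows, in which all 6 members and fewer of the other genes had an entry.

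Correlations of log2 CPM were at least 0.985 within and at most 0.975 between genotypes, and every pair of libraries differed by more than counting noise (lowest chi-square over its degrees of freedom 17.4). The 6 members and all gene lists were chosen with earlier results of these data known. Named were Srrm2, the members, Myocd, Mamstr, Scai, Actb, Actg1, the 3 largest called changes per list above a mean log2 CPM of 1, and the 5 profiles nearest to Srf. Other genes were named after their values were seen. The model was tested on simulated counts. Alternatives were upper quartile and RLE scaling, DESeq2 1.42.0, voom of limma 3.58.1, 2 other filters, removal of short, rRNA and mitochondrial RNA, a replicate block, stricter calls, other length scalings and each library left out. Some genes of the lists are counted but not reported by name here.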

Additional observations from a re-analysis of the deposited data

How the results depend on the processing

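Srf and Elk3 were called higher under both other normalizations, both other tools, both other filters, the removal of short RNA genes, the stricter adjusted p and with each library left out. Their log2 fold changes ranged from 0.95 to 1.03 (largest adjusted p 0.000264) and from 0.79 to 0.94 (largest adjusted p 0.00683). When a call also required a change of 1 or more on the log2 scale in either direction, the number of members called was 0, since Srf lies just under that size, and the MRTF-dependent targets called numbered 14 in place of 23. The ELK-dependent targets called ranged from 5 to 7. No fold change of the 6 members or of the genes named by rule changed sign. The medians of the 6 members (-0.0056 to 0.04) and of the ETS list (-0.02 to 0.03) lay on both sides of 0 over the alternatives. Under that size limit 1153 genes were called in all, in place of 4781, with 2 of the RhoA list, 3 of the ERK list, 3 of the ETS list and 0 of the shuttling and MADS-box lists. At an adjusted p under 0.01 the totals were 2779 genes, 10 of the ERK list, 5 of the ETS list, 2 of the shuttling list and 1 MADS-box gene. With each library left out, 3515 to 4122 genes were called. When genes had to reach 1 CPM throughout a genotype, 2 fibroblast markers were called in place of 6.

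Same-numbered libraries of the 2 genotypes showed no shared deviation from their group means, with correlations of -0.0285, -0.0337 and -0.0300. Whether same-numbered cultures were handled together cannot be told from these values. With a replicate block, 4166 genes, 2 members, 23 MRTF-dependent and 7 ELK-dependent targets were called. The difference in the share of Elk3 ranged from 6.53 to 8.86 points over the other length scalings and left-out libraries, that of Elk1 from -8.23 to -5.74 and that of Mrtfa from -5.02 to -2.82. Scaling by the longest transcript was chosen after seeing the data. Counts of Mrtfa (108 to 135 per library), Myocd and Mamstr were low.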
